A study of Mus musculus with 12 samples.

Results

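Male and female livers of the inbred mouse strain C57BL/6J were compared, male minus female, for the genes of the 19 autosomes. The arrays were chosen by strain and sex in their titles: 3 of males and 3 of females, or 6 of the 12 arrays of the study. The other 6 arrays are 3 of males and 3 of females of the strain KK, whose labels read KK/HIJ in one place and KK/J in another. All mice were 8 weeks old, ate chow, were housed singly for 3 days and fasted 4 hours, and the labels name no transgene, deletion or drug in any group. After cervical dislocation and perfusion with PBS, which washes blood out of the organ, the large liver lobe lay in RNAlater for 24 hours, and 300 ng of total RNA was labelled for an Affymetrix whole-transcript array. The arrays of a group are numbered 1 to 3 and are called mice here, but the labels used here do not say that each came from a separate animal, nor do they give litters or scan dates. P-values therefore measure the spread between these samples, which may be technical. Each value is the mRNA of a whole lobe, in which fewer cells of a type and less RNA per cell cannot be told apart.

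The rodent liver is one of the organs that differ most between the sexes, and much of that difference is set by growth hormone. The pituitary releases the hormone in separated pulses in males and more continuously in females, and each pattern switches the transcription factor STAT5B in hepatocytes differently. BCL6, a repressor that is more abundant in male liver, and CUX2, which is more abundant in female liver, act with STAT5B on the same target genes. These targets include cytochrome P450 enzymes that hydroxylate steroids, fatty acids and drugs, sulfotransferases, organic anion transporters, and the urinary proteins that carry pheromones.

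Values are log2 expression values, on which a difference of 1 is a doubling, and the median array value lay between 5.9 and 6 in the 6 mice. Over all probe sets, which do not stand for replicates, arrays correlated at 0.993 to 0.996 among females, at 0.995 among males and at 0.986 to 0.991 between the sexes. Xist read 10.29 to 10.55 in the females and 4.29 to 4.7 in the males, and the Y-linked gene Eif2s3y read 4.02 to 4.09 against 8.01 to 8.3, so the sex labels held for all 6 arrays. The mean of 15 hepatocyte markers lay between 13.04 and 13.16 in every mouse. Of 21212 probe sets, 18105 belong to an autosomal gene with 1 symbol, and their median difference between the sexes was 0.00. Adjusted p-values are those of limma, a linear model that shares information on the spread among probe sets, over all probe sets and all 12 arrays, and “called” means an adjusted p under 0.05 (219 of all 21212 probe sets here, 1.03%).

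Male livers differed from female livers by very large factors in a small number of genes. The fatty acid hydroxylase genes Cyp4a12b (121-fold) and Cyp4a12a (95.1-fold) and the steroid dehydrogenase gene Hsd3b5 (30.7-fold) were higher in males by the largest factors. The P450 genes Cyp2b9 (86.7-fold) and Cyp2b13 (76.2-fold), the transporter gene Slc22a26 (68.8-fold), the plasma glycoprotein gene A1bg (49.1-fold) and the sulfotransferase gene Sult3a1 (34.6-fold) were lower in males by the largest factors. In all, 191 of 18105 autosomal probe sets were called (1.05%), 66 higher in males (0.365%) and 125 lower (0.69%). Calls of at least 2-fold numbered 34 higher (0.188%) and 37 lower (0.204%), calls of at least 4-fold 12 and 14, and calls of at least 16-fold 3 and 6. At the other end, 12 of the higher and 38 of the lower calls were under 1.5-fold, and the median size was 1.01 log2 among higher and 0.75 among lower calls.

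In each of the 191 calls the 3 males lay entirely above or entirely below the 3 females, as they did in 2426 of all 18105 autosomal probe sets (13.4%, with males above in 6.28% and below in 7.12%). Without male 3 the count of calls was 122, with 41 higher and 81 lower, and without female 3 the count of lower calls was also 81. In each of the 12 fits that left out 1 array, 37 of the 66 higher and 66 of the 125 lower calls were called again, and 28 of the 30 genes with the largest differences, 15 each way, were among them. The exceptions were Slc22a28, which was lost without any 1 array other than female 2 and female 3, and Slco1a1, which was lost without male 2 and without male 3.

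A fit of the 6 C57BL/6J arrays alone called 157 autosomal probe sets, 137 of them among the 191. Of the genes named by rule and described here, it lost the calls of Cyp3a16, Srebf2, Elovl5, Acot2, Mup3, Fasn, Abca3, Apoa4, C8b, Ces4a, Cyp39a1, Etnppl, F7, Gstt1, Gstt3, Nqo1, Slc22a28 and Slco1a1. Quantile or loess normalization lost Cyp39a1 and Gstt3, and a prior with an intensity trend lost Abcb10, Acot3, Slc22a28 and Slco1a1. A test for a difference of at least 1.5-fold kept 35 of the 191 calls.

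**Figure D1:**
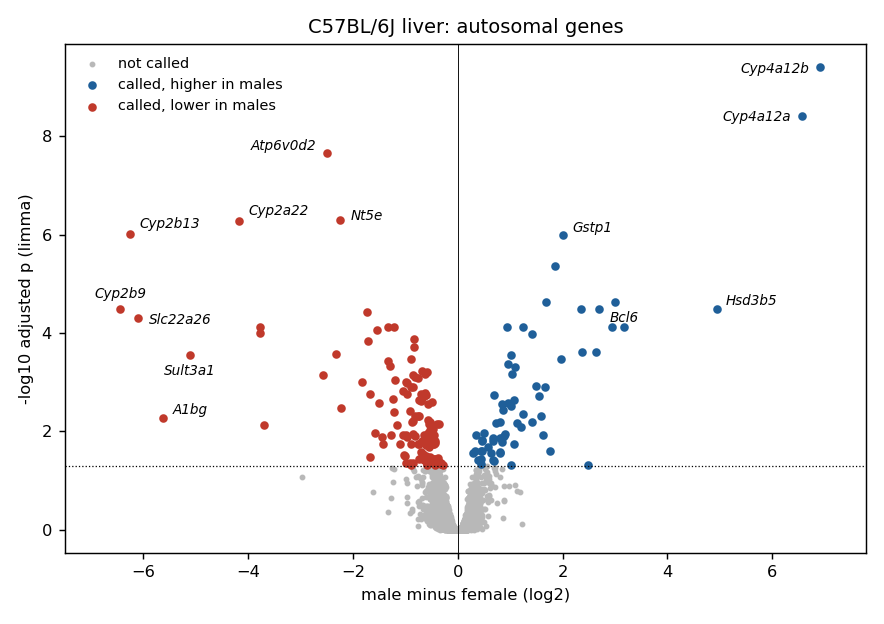
Difference between the sexes of each autosomal probe set (x axis, male minus female, log2) against -log10 of the adjusted p by limma (y axis), with the dotted line at the threshold of 0.05. Called probe sets are blue where males were higher (66) and red where they were lower (125), and the largest differences on both sides are P450 genes, Cyp4a12b at 6.91 and Cyp2b9 at -6.44.

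Most genes listed as sex-biased in mouse liver were called in the listed direction. The lists were chosen with earlier results of these data known, so their direction is not independent evidence. Of 19 measured genes known to be male-biased, 14 were higher in males, 0 were lower, and the median was 1.97 log2 (8.4% of all autosomal probe sets reached an unadjusted p under 0.05, and 18 of these 19 did). Of 16 measured genes known to be female-biased, 13 were lower in males, 0 were higher, and the median was -3.34, against 0.00 over all autosomal probe sets. Among male-biased genes that were not called, Scara5, a ferritin receptor gene, differed by 0.89 (adjusted p = 0.253) and Moxd1 by 0.43 (adjusted p = 0.88). Among female-biased ones, Sult2a1, which encodes a hydroxysteroid sulfotransferase, differed by -2.98 without passing the test (adjusted p = 0.0844). Its values were 4.61, 8.68 and 5.79 in the females and 3.46, 3.4 and 3.27 in the males, so that the groups did not overlap but the females spread over more than 4 log2 units.

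No gene of the growth hormone pathway passed the test. Of 19 measured genes of the receptor, its JAK-STAT signalling and its feedback, 0 were called by limma in either direction, and 7 had an unadjusted p under 0.05 (8.4% of all autosomal probe sets did). The receptor gene Ghr read 11.3, 11.14 and 11.31 in females and 11.37, 11.41 and 11.47 in males. Stat5b, the gene of the signal transducer, read 8.65, 8.49 and 8.46 against 8.14, 8.27 and 8.26, a difference of -0.31 (SE 0.08, adjusted p = 0.117). For both genes the sexes did not overlap, and neither difference passed the test.

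Cish, a feedback inhibitor gene that STAT5 induces, read 7.25, 7.14 and 7.86 in females and 6.82, 6.56 and 6.51 in males, a difference of -0.79 (SE 0.19, adjusted p = 0.0844). Socs2, another feedback inhibitor gene, differed by -0.87 (SE 0.31, adjusted p = 0.386), with males at 7.63 to 8.27 and females at 8.14 to 9.35. Igf1, the hormone gene that growth hormone induces in liver, differed by -0.18 (adjusted p = 0.613), and Egfr, the epidermal growth factor receptor gene, by 0.66 (adjusted p = 0.131). All 3 females lay above all 3 males for Cish, while the sexes overlapped for Socs2 and Igf1.

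Among 22 transcription factors of sex bias and hepatocyte identity, Bcl6 was higher in males and Esr1, Trim24 and Tox were lower. Bcl6 read 6.76, 6.3 and 6.24 in the females and 9.03, 8.95 and 9.39 in the males, a difference of 2.69 log2 (SE 0.21, 6.46-fold, adjusted p = 3.23e-05). The lowest male stood more than 2 log2 units above the highest female. Esr1, the oestrogen receptor alpha gene, read 8.61, 8.62 and 8.6 in females and 7.23, 7.53 and 7.07 in males, a difference of -1.33 (SE 0.12, adjusted p = 7.5e-05). The females were nearly identical to each other, and every male lay more than 1 log2 unit lower.

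Trim24, the gene of a cofactor that restrains retinoic acid receptors, was lower in males by -1.22 (SE 0.18, adjusted p = 0.00396), at 7.08 to 7.31 against 8.2 to 8.56. Tox, which encodes an HMG-box factor, was lower by -0.81 (SE 0.14, adjusted p = 0.0125), a call that was lost without female 2 and without male 2. Cux2, the female-biased repressor gene, read 6.63, 6.52 and 6.2 in females and 6.22, 6.09 and 6.06 in males, and the difference of -0.33 did not pass the test (adjusted p = 0.409). Of 22 nuclear receptor genes of the Nr family 0 were called, with 2 at an unadjusted p under 0.05 by limma, and 1 was called without KK female 1 or KK female 3. The hepatocyte factor gene Hnf4a differed by 0.05 (adjusted p = 0.999).

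The promoters of the called genes were searched for the letters that STAT5 binds, TTCNNNGAA, which read the same on both strands. The windows were the 250 bases before each annotated start of transcription, from RefSeq on the genome build GRCm38.p6. The motif stood in 6 of 60 windows of the genes higher in males (10%), in 13 of 126 windows of those lower in males (10.3%) and in 1186 of 17809 windows of all measured autosomal genes (6.66%). The letters ATCAAT on either strand, a core that CUX2 and other homeodomain factors can bind, stood in 8.33%, 11.1% and 5.22% of these windows. The strict palindromic motif of HNF1 stood in 0 windows of the called genes and in 1 window of all. A match is a run of letters and was not tested for binding.

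Of all measured autosomal genes with a window, 7.85% held TTCNNNGAA. Of the 30 genes with the largest differences, 21 had a window and 5 held TTCNNNGAA there. Their 6 windows are given 5′ to 3′ on the strand of the gene, with the match in capitals, because these genes include both Bcl6 and some of the largest differences in the other direction. Bcl6 has several starts, and its window with 3 matches and another with 1 match are shown.
Bcl6, window with 3 matches, chr16:23981284-23981533 (minus strand): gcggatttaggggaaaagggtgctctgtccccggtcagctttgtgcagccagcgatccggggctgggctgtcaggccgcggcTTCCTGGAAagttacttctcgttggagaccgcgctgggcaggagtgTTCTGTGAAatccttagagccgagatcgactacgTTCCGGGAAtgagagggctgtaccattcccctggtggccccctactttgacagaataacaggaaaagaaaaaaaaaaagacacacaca
Bcl6, window with 1 match, chr16:23988853-23989102 (minus strand): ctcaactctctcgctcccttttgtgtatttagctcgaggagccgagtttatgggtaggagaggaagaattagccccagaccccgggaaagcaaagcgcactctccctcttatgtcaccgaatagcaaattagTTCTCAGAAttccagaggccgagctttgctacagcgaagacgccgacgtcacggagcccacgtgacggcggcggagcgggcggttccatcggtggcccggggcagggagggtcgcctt
Slc22a26 chr19:7802668-7802917 (minus strand): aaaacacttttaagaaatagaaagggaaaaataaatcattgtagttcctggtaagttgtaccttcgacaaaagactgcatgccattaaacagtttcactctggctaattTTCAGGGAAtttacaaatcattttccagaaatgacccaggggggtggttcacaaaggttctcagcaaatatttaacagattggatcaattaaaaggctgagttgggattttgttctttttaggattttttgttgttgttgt
A1bg chr15:60921271-60921520 (minus strand): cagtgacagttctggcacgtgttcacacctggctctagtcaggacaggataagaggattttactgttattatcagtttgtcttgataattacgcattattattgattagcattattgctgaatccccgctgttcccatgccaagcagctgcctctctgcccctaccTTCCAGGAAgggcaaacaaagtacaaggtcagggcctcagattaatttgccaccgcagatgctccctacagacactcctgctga
Sult3a1 chr10:33857472-33857721 (plus strand): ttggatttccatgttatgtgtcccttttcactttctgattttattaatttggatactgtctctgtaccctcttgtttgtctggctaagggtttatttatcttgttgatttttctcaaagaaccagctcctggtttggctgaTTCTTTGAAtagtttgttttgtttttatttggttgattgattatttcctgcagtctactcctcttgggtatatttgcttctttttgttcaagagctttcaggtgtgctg
Hamp2 chr7:30924182-30924431 (minus strand): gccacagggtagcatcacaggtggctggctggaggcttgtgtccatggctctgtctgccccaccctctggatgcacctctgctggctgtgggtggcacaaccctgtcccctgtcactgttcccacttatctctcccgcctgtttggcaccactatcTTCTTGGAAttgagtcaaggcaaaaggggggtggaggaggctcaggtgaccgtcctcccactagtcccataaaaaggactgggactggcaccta

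The cytochrome P450 family held the largest differences in both directions. Of 90 measured Cyp genes, 5 were higher in males (Cyp4a12b, Cyp4a12a, Cyp2d9, Cyp7b1 and Cyp2u1) and 10 were lower (Cyp2b9, Cyp2b13, Cyp2a22, Cyp17a1, Cyp3a16, Cyp2c68, Cyp2c39, Cyp2c67, Cyp2c37 and Cyp39a1), and the median was -0.02. For this and every family or list below, the shares to compare are those over all autosomal probe sets. There 0.365% were called higher and 0.69% lower, and 8.4% had an unadjusted p under 0.05 by limma. Cyp4a12a and Cyp4a12b encode omega-hydroxylases of fatty acids and arachidonic acid. Cyp4a12b read 5.28, 4.51 and 5.08 in females and 11.63, 11.88 and 12.11 in males (6.91, SE 0.18, adjusted p = 3.89e-10). Its neighbour Cyp4a12a read 5.63, 4.75 and 4.81 against 11.24, 11.72 and 11.94 (6.57, SE 0.21, adjusted p = 3.82e-09). Both stood more than 5 log2 units apart between the sexes, and since the genes are nearly identical their probes may read either.

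Cyp2d9, a testosterone 16alpha-hydroxylase gene, read 10.23, 9.17 and 10.33 in females and 12.79, 12.85 and 12.91 in males (2.94, SE 0.26, adjusted p = 7.37e-05). Cyp7b1, the oxysterol 7alpha-hydroxylase gene, read 9.5, 8.65 and 9.03 against 11.19, 11.74 and 12.19 (2.64, SE 0.27, adjusted p = 0.000245), and Cyp2u1 was higher by 1.68 (adjusted p = 2.36e-05). For Cyp2d9 and Cyp7b1 female 2 was the lowest of the 6 mice. Other Cyp2d genes differed little: of 9 measured, Cyp2d9 was the 1 called, and the median was 0.14. The other 4 measured Cyp4a genes were not called and differed by -1.28 at the lowest, in Cyp4a14.

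Cyp2b9 and Cyp2b13, phenobarbital-inducible P450 genes that females express, were lower in males by -6.44 (SE 0.51, adjusted p = 3.23e-05) and -6.25 (SE 0.35, adjusted p = 9.55e-07). Cyp2b9 read 12.31, 12.3 and 12.11 in females and 5.89, 6.33 and 5.19 in males. Cyp2b13 read 9.93, 10.09 and 9.94 against 3.75, 3.82 and 3.64, and its male mean lay under the 10th percentile of the values on each array (3.9 to 3.94). The females were tight in both genes, and the males were tight at the low end of the scale in Cyp2b13 but spread over more than 1 log2 unit in Cyp2b9. These 2 genes are close paralogs and share much of their sequence.

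Cyp2a22 was lower in males by -4.17 (SE 0.22, adjusted p = 5.18e-07), at 5.75 to 6.18 against 9.87 to 10.41. Cyp17a1, the steroid 17alpha-hydroxylase gene of androgen synthesis, read 10.57, 11.55 and 10.48 in females and 7.99, 6.5 and 6.77 in males (-3.78, SE 0.35, adjusted p = 0.0001). Cyp3a16 read 8.49, 9.14 and 5.87 against 4.05, 4.26 and 4.12 (-3.69, SE 0.58, adjusted p = 0.0073). Female 3 stood well below the other females in Cyp3a16 but still above every male. Of 13 Cyp2c genes, 4 were lower by -1.02 to -1.27, close paralogs on chromosome 19 that their probes may not separate. Cyp2c67 and Cyp2c39 were called in each fit that left out 1 array, and Cyp2c37 and Cyp2c68 were not. Cyp7a1, which encodes the rate-limiting enzyme of bile acid synthesis, read 11.35, 10.72 and 10.33 in females and 10.88, 10.21 and 10.4 in males, overlapping (adjusted p = 0.992).

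**Figure D2:**
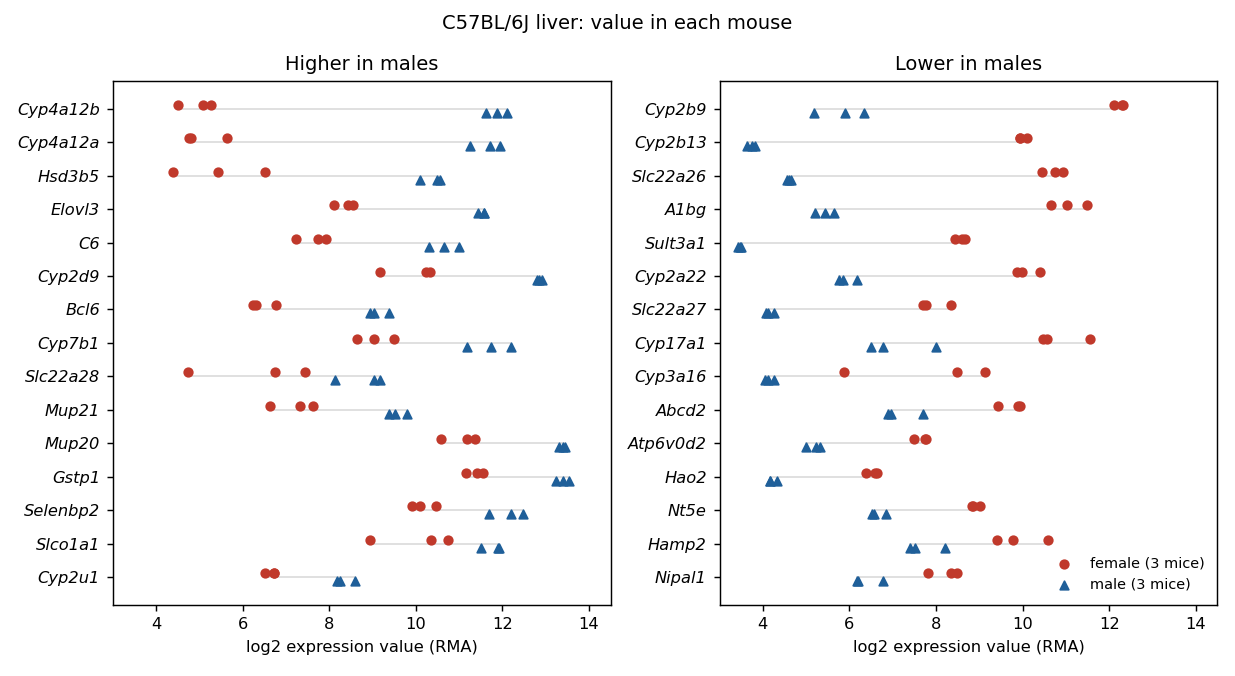
Log2 expression value (x axis) of the 15 named autosomal genes with the largest difference higher in males (left) and lower in males (right), with a red circle per female and a blue triangle per male. In every row the 3 males and 3 females do not overlap, as the rule for naming required, and rows are not compared with each other because levels of different probe sets are not on a common scale.

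Among steroid and conjugating enzymes outside the P450 family, Hsd3b5 and Sult3a1 had the largest differences. Hsd3b5, a hydroxysteroid dehydrogenase gene of male liver, read 6.52, 4.39 and 5.42 in females and 10.1, 10.5 and 10.55 in males (4.94, SE 0.39, adjusted p = 3.23e-05). The females spread over more than 2 log2 units and all lay more than 3 units below the males. Of the 18 measured genes of the Hsd3b, Hsd11b and Hsd17b families, Hsd3b2 (1.13, adjusted p = 0.00692) was the other that was higher, 0 were lower, and the paralogs may share probes. Of 15 aldo-keto reductase genes 0 were called, with 4 at an unadjusted p under 0.05 by limma, against 8.4% of all autosomal probe sets.

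Sult3a1, which encodes an amine sulfotransferase, read 8.67, 8.44 and 8.61 in females and 3.49, 3.42 and 3.48 in males (-5.11, SE 0.53, adjusted p = 0.00028). Its male mean, like that of Cyp2b13, lay under the 10th percentile of each array. Of 18 sulfotransferase genes it was the 1 that was called, and 3 were called lower without female 1 or KK female 1, and 2 without female 2, male 1 or KK female 3. Of 13 UDP-glucuronosyltransferase genes 0 were called, with 4 at an unadjusted p under 0.05 by limma, against 8.4% of all autosomal probe sets. All 6 non-overlapping members of that family were higher in males, where males lay above in 6.28% of all autosomal probe sets. Ugt2b1 differed by 0.70 (adjusted p = 0.0567), and 1 member was called without female 1 and 2 without KK female 3.

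Gstp1, a glutathione S-transferase gene, read 11.55, 11.16 and 11.42 in females and 13.23, 13.53 and 13.41 in males (2.01, SE 0.11, adjusted p = 1.03e-06). No other of 20 Gst genes was higher, and Gstt1 (-0.46, adjusted p = 0.0148) and Gstt3 (-0.98, adjusted p = 0.0445) were lower. Gstt1 was lost without any of the 3 females, male 2 or male 3, and Gstt3 without any 1 array other than male 1, so that 0 Gst genes were called lower without female 2, female 3, male 2 or male 3. The flavin monooxygenase genes Fmo2 (-1.67, adjusted p = 0.00171), Fmo4 (-1.05, adjusted p = 0.0116) and Fmo1 (-0.68, adjusted p = 0.0158) were lower in males, 3 of 5 measured. Fmo4 was lost without female 3, male 1 or male 3, and Fmo1 without female 2, male 2 or male 3, so that only Fmo2 was called without male 3. Fmo5 lay on the other side at 0.56 (adjusted p = 0.0516), and 1 Fmo gene was called higher without male 2.

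Among 17 carboxylesterase genes, Ces4a was higher in males (0.81, adjusted p = 0.0282) and 0 were lower. That call was lost without any of the 3 females, male 2, male 3 or KK male 1, and 1 gene was called lower without male 1. Selenbp2, a selenium-binding protein gene long known as a male-biased liver transcript, was higher by 1.97 (adjusted p = 0.000344), at 11.7 to 12.48 against 9.91 to 10.46. Of 19 NRF2 target and glutathione genes, Aox1, an aldehyde oxidase gene, was higher (0.63, adjusted p = 0.0282) and Nqo1, a quinone reductase gene, was lower (-0.98, adjusted p = 0.0116). Aox1 was lost without female 1, female 2, male 2, male 3 or KK male 1, and Nqo1 without female 2, male 2 or male 3.

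**Figure D3:**
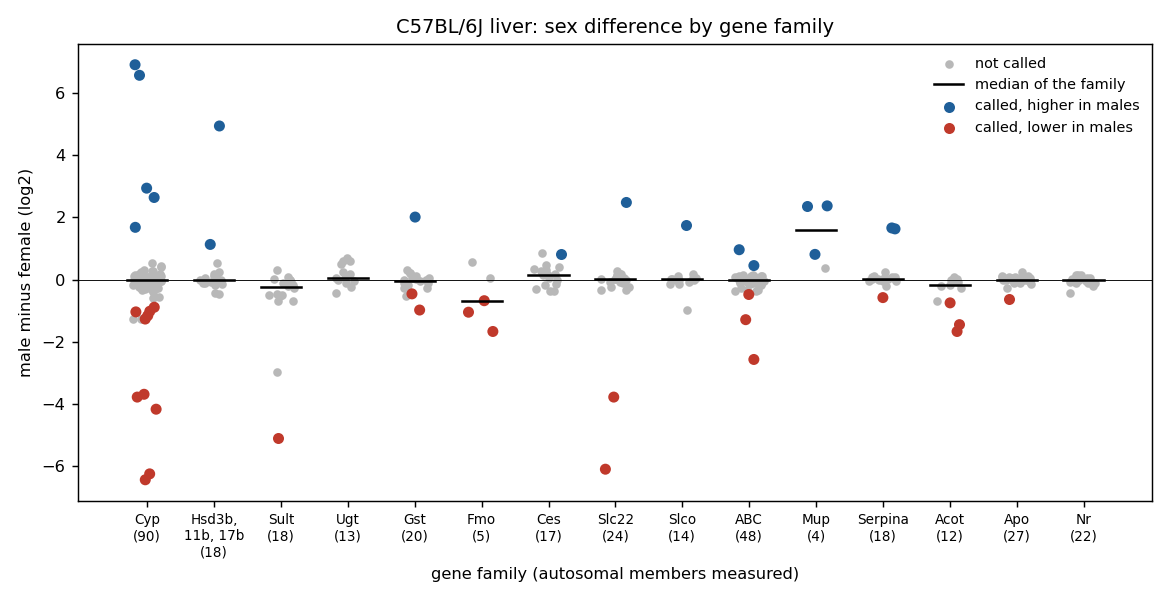
Difference between the sexes (y axis, male minus female, log2) of each measured autosomal member of 15 gene families (x axis, number of members in brackets), with called members in blue (higher in males) or red (lower), the others in grey, and a black bar at the family's median. The Cyp family spreads from -6.44 to 6.91 around a median of -0.02, and the medians of the Mup and Fmo families, 1.58 and -0.68, are the farthest from 0.

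Transporters of organic ions and of very long fatty acids were among the largest differences. Slc22a26, an organic anion transporter gene, read 10.94, 10.74 and 10.45 in females and 4.65, 4.56 and 4.61 in males (-6.10, SE 0.51, adjusted p = 4.97e-05). Slc22a27 read 7.78, 7.69 and 8.35 against 4.26, 4.13 and 4.08 (-3.78, SE 0.34, adjusted p = 7.5e-05). Slc22a28, another member of that cluster on chromosome 19, lay in the other direction. Its values were 6.74, 4.74 and 7.43 in females and 8.14, 9.17 and 9.04 in males (2.48, SE 0.52, adjusted p = 0.0474), a call that rested on nearly every array, as given above. Of 24 Slc22 genes these 3 were called, against 1.05% of all autosomal probe sets, and they are paralogs that resemble each other.

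Slco1a1, which encodes an uptake transporter of bile acids and steroid conjugates, read 10.74, 8.93 and 10.35 in females and 11.51, 11.9 and 11.93 in males (1.77, SE 0.34, adjusted p = 0.0251). Slco1a4, a paralog, differed by -0.99 and was not called (adjusted p = 0.0949), and of 14 Slco genes 1 was called lower without KK female 2. Of 48 ABC transporter genes, 2 were higher and 3 lower in males. Abcd2, the peroxisomal transporter gene of very long fatty acids, was lower by -2.57 (SE 0.30, adjusted p = 0.000715), at 6.9 to 7.69 against 9.44 to 9.93. Abcb1a, the multidrug efflux pump gene, was lower by -1.29 (adjusted p = 0.000471), and Abcg2, a urate and drug exporter gene, was higher by 0.96 (adjusted p = 0.00268). Abca3 (-0.48) was lost without female 1, female 2, male 1 or male 2. Abcb10 (0.45) was lost without any 1 array other than KK female 2 and KK female 3, and the count of higher ABC genes was then 1.

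In lipid metabolism, a few enzymes were called and most pathway genes were not, where 1.05% of all autosomal probe sets were called. Elovl3, a fatty acid elongase gene, read 8.44, 8.54 and 8.1 in females and 11.43, 11.57 and 11.58 in males (3.17, SE 0.28, adjusted p = 7.37e-05). Among 26 synthesis genes of fatty acids and triglycerides it was the 1 that was higher, while Elovl5 (-0.53, adjusted p = 0.00634), the desaturase gene Fads1 (-0.40, adjusted p = 0.00725) and the fatty acid synthase gene Fasn (-0.89, adjusted p = 0.0185) were lower. Fasn was lost without female 2, female 3, male 1 or male 2. Srebf2, the gene of the transcription factor of cholesterol synthesis, was lower by -0.54 (adjusted p = 0.00718), at 8 to 8.08 against 8.44 to 8.78. Of 16 genes of cholesterol synthesis it was the 1 called, and 3 were called lower without female 1. The median of the 16 was -0.31, and 1 had a difference above 0. All 3 males lay below all 3 females in 5 of them, against 7.12% of all autosomal probe sets. An unadjusted p under 0.05 by limma was reached by 6, against 8.4% of all. The list was not tested as a set.

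Among 24 fatty acid oxidation genes and targets of PPARalpha, 0 were higher and 2 were lower in males: the acyl-CoA thioesterase genes Acot4 (-1.45, adjusted p = 0.0133) and Acot3 (-1.67, adjusted p = 0.034). Acot3 read 6.66, 7.31 and 7.16 in females and 5.38, 5.41 and 5.33 in males. The count of lower calls was 5 without female 1, 1 without male 2 or KK male 1, and 0 without female 2, female 3, male 1 or male 3. Of the 24 genes, 11 had an unadjusted p under 0.05 by limma, against 8.4% of all autosomal probe sets. All 3 males lay below all 3 females in 8 of them and above in 1, against 7.12% and 6.28%. This list was not tested as a set either. Of the 12 Acot genes Acot2 was lower as well (-0.75, adjusted p = 0.00487), and 1 of the family was called without female 2, female 3, male 1 or male 3. The carnitine palmitoyltransferase gene Cpt1a differed by -0.08 (adjusted p = 0.999).

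The uptake receptor genes Vldlr (-0.90, adjusted p = 0.00126) and Cd36 (-0.97, adjusted p = 0.0133) were the 2 called, both lower in males, among 18 genes of lipid droplets and fatty acid uptake. Cd36, the fatty acid translocase gene, read 10.15, 10.33 and 10.38 in females and 9.63, 9.03 and 9.3 in males, and was lost without female 2, female 3, male 2 or male 3. Of 27 apolipoprotein genes Apoa4 was lower (-0.64, adjusted p = 0.0376) and 0 were higher. Apoa4 was lost without any of the 3 females, male 2, male 3, KK female 1, KK female 2 or KK male 1.

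Of 26 measured genes of bile acid synthesis and transport, Cyp7b1, Slco1a1 and Scp2 were higher in males and Cyp39a1 was lower. Scp2, the sterol carrier protein gene, read 11.76, 12 and 11.95 in females and 12.84, 13.12 and 13.03 in males (1.09, SE 0.12, adjusted p = 0.000494). Cyp39a1, an oxysterol hydroxylase gene, was lower by -0.89 (adjusted p = 0.0475) and was lost without any 1 array other than male 1 and KK female 3. The canalicular pump gene Abcb11 differed by -0.14 (adjusted p = 0.696) and the uptake transporter gene Slc10a1 by -0.18 (adjusted p = 0.451).

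Secreted liver proteins formed another group with differences. Of 4 measured major urinary protein genes, whose products carry pheromones into urine, Mup21, Mup20 and Mup3 were higher in males. Mup20 read 11.19, 10.57 and 11.36 in females and 13.3, 13.45 and 13.4 in males (2.35, SE 0.19, adjusted p = 3.23e-05). Mup21 was higher by 2.37 (adjusted p = 0.000248), Mup3 by 0.81 (adjusted p = 0.00634), and Mup5 differed by 0.37 (adjusted p = 0.214). The genes of the Mup cluster are nearly identical, and a probe set may read several of them.

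The complement genes called were C6, C9 and C8b, which encode parts of the membrane attack complex, and Susd4. C6 read 7.93, 7.24 and 7.74 in females and 10.31, 10.64 and 10.99 in males (3.01, SE 0.23, adjusted p = 2.37e-05), and C9 read 10.53, 9.65 and 10.15 against 11.22, 11.36 and 11.48 (1.24, SE 0.18, adjusted p = 0.00442). In both, all males stood above all females, and female 2 was the lowest mouse. Susd4, a complement regulator gene, was higher by 1.59 (adjusted p = 0.00487) and C8b by 0.68 (adjusted p = 0.0385), a call lost without any 1 array other than female 1 and male 1. C8a differed by 0.84 (adjusted p = 0.057) and C7 by -0.03 (adjusted p = 0.999). These 4 of 25 complement genes were called higher and 0 lower, against 0.365% and 0.69% of all autosomal probe sets. In that list 1 gene was called lower without KK male 2 or KK male 3.

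Of 25 acute phase genes, Apcs, the serum amyloid P gene (-0.85, adjusted p = 0.00609), and Orm3, an orosomucoid gene (-1.42, adjusted p = 0.0183), were lower in males, and 0 were higher. Orm3 was lost without female 1, female 3, male 2 or male 3, and it resembles its paralogs. Saa1, an acute phase gene that rises with inflammation, differed by 1.23 with a wide error (SE 0.70, adjusted p = 0.779). Of 23 coagulation genes F7 was the 1 called (-0.35, adjusted p = 0.0413), and it was lost without any 1 array other than KK female 2. Of 18 Serpina genes, Serpina12 (1.66, adjusted p = 0.00126) and the pseudogene Serpina4-ps1 (1.63, adjusted p = 0.0116) were higher, the latter lost without male 3. Serpina6, the corticosteroid-binding globulin gene, was lower by -0.58 (adjusted p = 0.0486), and was lost without any 1 array other than KK male 2 and KK male 3.

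A1bg, which encodes a plasma glycoprotein of the immunoglobulin family, read 11.48, 11.02 and 10.65 in females and 5.21, 5.43 and 5.65 in males (-5.62, SE 0.85, adjusted p = 0.00529). The model pools the spread of all 4 groups, and the SD of A1bg was 2.48 in KK females, against 0.42 in C57BL/6J females and 0.22 in C57BL/6J males. Hamp2, a hepcidin gene and the 1 called of 14 iron homeostasis genes, read 9.78, 10.58 and 9.41 against 8.2, 7.51 and 7.41 (-2.22, SE 0.32, adjusted p = 0.00335). Nt5e, the ecto-5'-nucleotidase gene that makes adenosine, was lower in males by -2.25 (SE 0.12, adjusted p = 5.04e-07), and Atp6v0d2, a proton pump subunit gene, by -2.50 (SE 0.10, adjusted p = 2.2e-08). Hao2, a peroxisomal hydroxyacid oxidase gene, was lower by -2.32 (adjusted p = 0.00027), and Nipal1, a magnesium transporter gene, by -1.83 (adjusted p = 0.00101). All 3 males lay below all 3 females in each of them.

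Central metabolism and stress pathways held few calls or none, as lists this short would at the share over all autosomal probe sets. That share was 1.05% called, so the counts of calls do not set the pathways apart. At an unadjusted p under 0.05 by limma the share was 8.4%. Unadjusted counts lay above it in some lists, such as 5 of 17 clock genes and 5 of 18 proliferation genes. They lay below it in others, such as 1 of 22 interferon response genes. No list was tested as a set. Of 23 genes of the respiratory chain 0 were called, and 0 had an unadjusted p under 0.05 by limma. Their differences were small, from -0.21 to 0.15, and 20 of the 23 were above 0. All 3 males lay above all 3 females in 7 and below in 1, against 6.28% and 7.12% of all autosomal probe sets. Of 20 genes of glucose metabolism and insulin signalling 0 were called (5 unadjusted, and 1 called higher without female 1), and of 23 urea cycle and amino acid genes 0 (4 unadjusted, and 1 called lower without male 1). Of 17 clock genes 0 were called (5 unadjusted, and 1 called higher without male 2), with Ciart, a clock repressor gene, at 1.19 (adjusted p = 0.169) and overlapping values. By limma 0 of 20 unfolded protein response genes (2 unadjusted, and 1 called higher without KK male 1), 0 of 15 heat shock and immediate early genes (1 unadjusted), 0 of 22 interferon response genes (1 unadjusted) and 0 of 24 MHC genes (4 unadjusted) were called. Of 18 proliferation genes Ccnd1, the cyclin D1 gene, was the 1 called (5 unadjusted). Ccnd1 read 8.73, 9.33 and 9.22 in females and 7.2, 7.98 and 7.61 in males (-1.50, SE 0.21, adjusted p = 0.00264).

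Of the 191 calls, 117 lay in none of these lists and families, and the following were chosen after their values were seen, among those called in each of the 12 fits that left out 1 array. Lepr, the leptin receptor gene, read 5.68, 5.08 and 5.78 in females and 4.25, 4.34 and 4.39 in males (-1.19, adjusted p = 0.000893). Avpr1a, the vasopressin receptor gene of hepatocytes, was lower by -0.85 (adjusted p = 0.00126), and Abhd2, a lipase gene, by -1.74 (adjusted p = 3.73e-05). Nudt7, the gene of a peroxisomal coenzyme A hydrolase, read 10.78, 10.51 and 10.7 against 11.67, 11.99 and 12.06 (1.24, adjusted p = 7.5e-05). Nox4, an NADPH oxidase gene, was higher by 1.41 (adjusted p = 0.00657), and Fitm1, a gene of lipid droplet formation, by 1.41 (adjusted p = 0.000104). Each of these genes had males and females that did not overlap.

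Among markers of other cell types, 1 gene was called, Pkhd1 of the cholangiocyte list. The mean of 15 sinusoidal endothelial markers lay at 7.99 to 8.18 in females and 7.73 to 7.89 in males. All 3 males lay below all 3 females in 10 of the 15, against 7.12% of all autosomal probe sets. Clec4g differed by -0.31 (adjusted p = 0.101) and Stab2 by -0.29 (adjusted p = 0.155). By limma 0 were called (8 unadjusted, and 1 called without KK female 2), and 2 were called lower after cyclic loess normalization. The mean of 7 cholangiocyte markers lay at 5.67 to 5.72 against 5.5 to 5.63, with Pkhd1 called lower (-0.57, adjusted p = 0.011, lost without male 2). For 15 Kupffer cell markers (7.67 to 7.83 against 7.25 to 7.8) and 16 stellate cell markers (7.14 to 7.43 against 6.88 to 7.21) the sexes overlapped and 0 were called (2 and 5 unadjusted). Male 1 and male 3 were lower than male 2 in both lists.

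Among hepatocyte zones, 13 pericentral genes had a mean of 10.07 to 10.09 in females and 9.68 to 9.88 in males. All 3 males lay below all 3 females in 7 of them, against 7.12% of all autosomal probe sets. Lect2 was the 1 called (-0.71, adjusted p = 0.00236). The count was 2 without female 2. The 9 periportal genes had a mean of 11.64 to 11.78 against 11.81 to 11.88, with Etnppl called higher (0.67, adjusted p = 0.0139). Etnppl was lost without female 2 or male 1, and 2 periportal genes were called without female 1. Of the 15 general hepatocyte markers 0 were called (1 unadjusted), and 1 was called higher without female 1. The means of T and NK cell, B cell, erythroid and neutrophil, adipose and pancreas markers overlapped between the sexes. The part that cell types or zones have in the differences of the other genes was not tested.

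**Figure D4:**
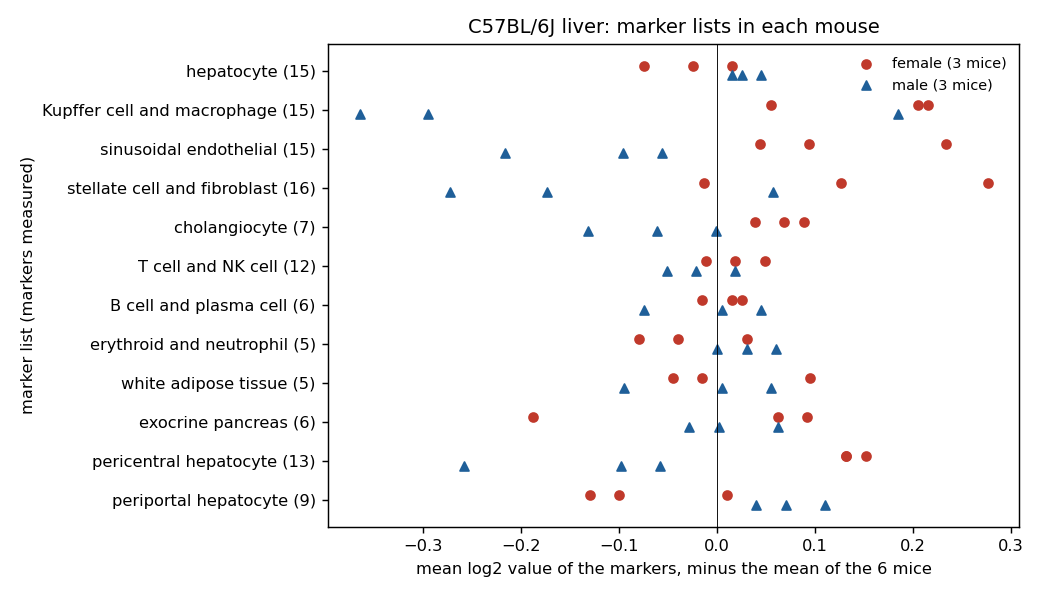
Mean log2 value of each marker list in each mouse, minus the mean of the 6 mice (x axis), for 12 lists of cell types and hepatocyte zones (y axis, number of markers in brackets), with a red circle per female and a blue triangle per male. The sexes separate for the sinusoidal endothelial, cholangiocyte, pericentral and periportal lists, by less than 0.5 log2, and overlap or touch for the other lists.

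Within each sex the mice were not alike for the genes higher in males. Female 2 was the lowest female in 46 of those 66 calls, against 6056 of all 18105 autosomal probe sets, and male 3 was the highest male in 50 of the 66, against 6968 of 18105. The mean over the 66 was 8.21, 7.86 and 8.19 in females and 9.38, 9.47 and 9.65 in males. Over the 125 lower calls the means were 8.89, 8.93 and 8.90 in females and 7.78, 7.74 and 7.71 in males, so those mice stood closer together. The SD among females exceeded 0.5 in 6 of the 66, and Hsd3b5 (SD 1.06), Slco1a1 (SD 0.95) and Slc22a28 (SD 1.4) were among them. The values of the calls are those that selected them, so these counts describe the mice and are not tests.

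The KK mice share no array with this comparison and were measured on the same platform, though they enter the estimate of the spread. Of the 191 calls, 181 had the same sign in KK (94.8%), against 60.2% of all autosomal probe sets, and 84 were called in the same direction in KK (44%), against 405 calls of 18105 in KK (2.24%, with 0.718% higher and 1.52% lower in males). These 84 were 20.7% of the KK calls, and 0 were called in the opposite direction. The difference was smaller in KK for 158 of the 191, and for 6721 of all 18105 autosomal probe sets. The 191 were selected by their values in C57BL/6J, so their smaller size in KK is not a test of the strains. Medians were 1.01 against 0.46 for the 66 higher calls, 25 of which were called in KK, and -0.75 against -0.52 for the 125 lower calls, 59 of which were called. The KK females were not alike. Their means were 8.94, 8.87 and 9.19 over the higher calls (KK males 9.51 to 9.63) and 8.64, 8.47 and 8.28 over the lower (KK males 7.67 to 7.79). KK female 3 lay nearest the KK males in both sets, and its part in the smaller difference was not tested.

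For the following genes, chosen after their values were seen, the sex difference was called in both strains with a similar size. Cyp2u1 differed by 1.68 in C57BL/6J and 1.71 in KK, Esr1 by -1.33 in each, and Nt5e by -2.25 and -1.88. Hamp2 differed by -2.22 and -2.07, and A1bg by -5.62 and -4.95. For A1bg the KK females read 11.72, 11.58 and 7.35, so its size in KK is a mean over unlike mice.

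The strain by sex interaction, which tests whether the sex difference of C57BL/6J differs from that of KK, called 28 autosomal probe sets (0.155%), of which 15 were also called in C57BL/6J. The count was 18 without male 3 and 18 without KK male 2. Cyp4a12b differed by 6.91 in C57BL/6J and 0.32 in KK (interaction adjusted p = 1.66e-07), and Cyp4a12a by 6.57 and 0.26 (adjusted p = 9.14e-07). Bcl6 differed by 2.69 and -0.04 (adjusted p = 0.00264), with KK means of 7.38 in females and 7.34 in males between those of the C57BL/6J sexes, 6.43 and 9.13. Atp6v0d2 differed by -2.50 and 0.01 (adjusted p = 2.43e-06) and Cyp2a22 by -4.17 and -1.07 (adjusted p = 0.000976). Levels in KK were unlike among these genes. Cyp4a12b had KK means of 12.01 in females and 12.33 in males, and Cyp4a12a of 12.25 and 12.51. Atp6v0d2 had KK means of 4.63 and 4.64, under the KK array medians of 5.91 to 6.03.

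**Figure D5:**
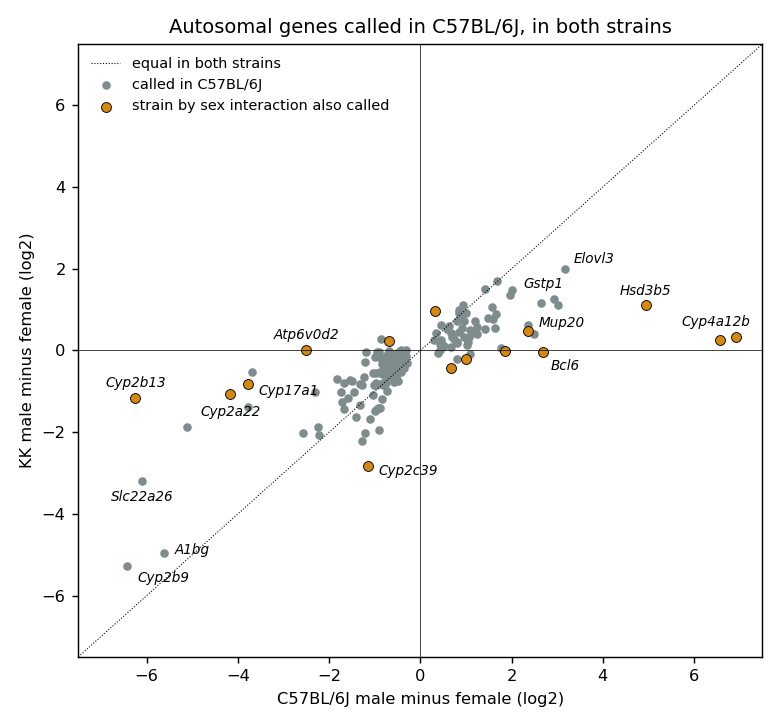
Difference between the sexes in C57BL/6J (x axis) and in KK (y axis), both male minus female in log2, for the 191 autosomal probe sets called in C57BL/6J, with those whose interaction was also called in orange and the dotted line where the strains are equal. Most points lie in the quadrants of equal sign (181 of 191) and nearer to 0 in KK, and the Cyp4a12 genes, Bcl6 and Atp6v0d2 lie close to 0 in KK. The points were selected by their values in C57BL/6J, so their smaller size in KK is not a test of the strains.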

How the data were processed

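The authors' deposited table holds log2 expression values of 21212 probe sets on 12 arrays. The submitters' processing notes name RMA, which corrects background, normalizes by quantiles and summarizes probes, and the package affy, with no versions. Such values compress differences near background, and detection calls were not used here. Probe sets were named by the platform annotation (18786 with 1 symbol, 6 with several, 2420 with none), and 18105 were placed on the 19 autosomes through Entrez IDs in RefSeq, GRCm38.p6. limma 3.58.1 in R 4.3.3 fitted 1 mean per group of strain and sex to all 12 arrays, with a shared spread and no filter. Two-sided p-values were adjusted by Benjamini-Hochberg over all probe sets, and calls had an adjusted p under 0.05.

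Named were the 15 called autosomal genes with the largest difference each way, without overlap between the sexes, up to 5 members of each of 35 lists and 16 families by adjusted p, and 5 interaction genes each way. Other genes were chosen after their values were seen. The lists and the genes examined were chosen with earlier results of these data known. Alternatives were another normalization, a filter on dim probe sets, 1 probe set per gene, another prior, array weights, a replicate block, 6 arrays alone, a minimum fold and leaving out each array. The same fit was tested on simulated data. There the C57BL/6J comparison recovered 56 of 67 changed probe sets at 1.5-fold (83.6%), 67 of 67 at 2-fold and 66 of 66 at 4-fold. Beside these true calls, it made 17 false calls among the unchanged probe sets of the 21212. The simulated noise was normal and independent, with the spread limma estimated for each probe set, equal in all 4 groups. Real groups differ in spread, so these shares do not give the power in the real data. There, 11 autosomal probe sets differed by at least 2-fold and were not called. With 3 arrays a group, their number limits the precision.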

Additional observations from a re-analysis of the deposited data

Results flagged for a closer look

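The sex difference itself differed between C57BL/6J and KK, by limma's interaction test over all 12 arrays, for the following named genes. Each value is the male minus female difference in C57BL/6J minus that in KK, in log2. It was 6.59 for Cyp4a12b (adjusted p = 1.66e-07) and 6.31 for Cyp4a12a (adjusted p = 9.14e-07), with the males higher in all 3 mice in C57BL/6J. For the male-biased Bcl6 it was 2.73 (adjusted p = 0.00264), for Hsd3b5 3.84 (adjusted p = 0.0174) and for Mup20 1.86 (adjusted p = 0.0164). Hsd3b5 was lost without female 3, male 2, male 3, KK male 1 or KK male 2 (adjusted p up to 0.066), and Mup20 without male 2, male 3, KK male 1 or KK male 2 (up to 0.0533).

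For genes lower in C57BL/6J males it was -5.08 for Cyp2b13 (adjusted p = 0.000912), -3.09 for Cyp2a22 (adjusted p = 0.000976), -2.51 for Atp6v0d2 (adjusted p = 2.43e-06) and -2.96 for Cyp17a1 (adjusted p = 0.0458). The call of Cyp17a1 was lost without any 1 array other than male 1, at adjusted p-values of 0.0561 to 0.144. Cyp4a14 differed by -1.28 in C57BL/6J and -5.61 in KK, so that its interaction was 4.33 (adjusted p = 0.00548), and Moxd1 by 0.43 and 3.82 (-3.4, adjusted p = 0.00486).

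Of the 28 autosomal interaction calls, 14 had opposite signs in the strains, where 60.2% of all autosomal probe sets had the same sign. Some of the 14 lay close to 0 in 1 strain, such as Bcl6 (-0.04 in KK), Atp6v0d2 (0.01 in KK) and Serpina1d (-0.01 in C57BL/6J). Of the calls in C57BL/6J, 0 were called in the opposite direction in KK. Cish differed by -0.79 in C57BL/6J and 1 in KK, an interaction of -1.79 (adjusted p = 0.0184), which was lost without male 2, male 3, KK female 1 or KK male 2 (0.0576 to 0.0714). Etnppl differed by 0.67 and -0.42, an interaction of 1.1 (adjusted p = 0.0222), which was lost without male 2, KK female 1, KK female 3, KK male 1 or KK male 2 (0.051 to 0.0824).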

How the results depend on the processing

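No call turned its direction under any alternative run. The sexes did not overlap in any call, so leaving out 1 array or reweighting arrays could not have turned one. Fits that keep the group means, such as the 1.5-fold test, could not either. Against 191 autosomal calls, 66 higher and 125 lower in males, array weights gave 324 (112 and 212), a test of at least 1.5-fold gave 35 (16 and 19), and a covariate holding each array's interquartile range, chosen after seeing the data, gave 354 (155 and 199). The cause of these changes was not tested, except that the 1.5-fold test asks for a larger difference. Quantile normalization gave 239 and cyclic loess 245. Leaving out 1 array gave 122 to 194 calls, 41 to 72 higher and 81 to 124 lower. Against 28 interaction calls, array weights gave 70, the 1.5-fold test 10, the covariate 43, and leaving out 1 array 18 to 34. The share of calls with the same sign in KK was 89.8% to 95% when 1 array was left out. Same-numbered females and males correlated at 0.09, 0.1 and 0.44 in their deviations from the group means, and those of unlike number at -0.4 to 0.33. The numbers are replicate numbers in the titles and were not taken as pairs in the main fit. Whether arrays of the same number share an effect was not tested. With a replicate block there were 225 calls (91 and 134) and 38 interaction calls, with the 6 C57BL/6J arrays alone 157, and with those and the block 194. Background correction could not be varied, since scanner files were not used here. Low values are compressed, which limits differences such as those of Cyp2b13 and Sult3a1 in males.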
